A study of Mus musculus with 6 samples.

Results

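Lysosomes are acidic organelles that digest proteins, lipids and sugars with soluble hydrolases, and a proton pump, the V-ATPase, keeps them acidic. Autophagy delivers cytoplasm to them. A membrane sac grows around its cargo, carries ubiquitin-like ATG8 proteins (the LC3 and GABARAP families) fixed to its lipids, closes as an autophagosome and fuses with a lysosome. Many lysosomal genes and some autophagy genes share a promoter element bound by the MiT transcription factors TFEB and TFE3, and huntingtin itself is known to take part in selective autophagy. In muscle, autophagy maintains fibre mass, and it is needed for myoblasts to differentiate.

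The list described here holds 39 genes chosen by name for these functions: 21 lysosomal genes, 16 autophagosome genes and the regulators Tfeb and Tfe3. Of the 39, 38 were measured among the 22180 genes of the series; Glb1 was left out because its probe set carries several gene symbols. The measured members were 20 lysosomal genes, 16 autophagosome genes and both regulators. All were read on microarrays hybridised with RNA of C2C12, an established mouse myoblast line. There were 3 arrays of cells transfected with a pool of siRNAs against Htt, the huntingtin gene, which the labels call HTT KO, and 3 arrays of cells transfected with scramble siRNA. Both groups were transfected, so no untreated cells serve as a baseline. Nothing in the labels tells separate cultures from technical repeats, and p-values therefore cover the spread between these arrays. Values are the authors' log2 RMA values, and differences are Htt siRNA minus scramble, followed by the standard error (SE) of limma, a linear model that pools variance over genes. Differences are taken between arrays for 1 gene at a time, since levels of different probe sets are not on a shared scale. The median gene mean of 2.95 is a rough cut. It marks weak signals and sets apart the 11090 genes above it, for comparison and for an alternative fit. The series' title names the question: whether huntingtin controls how muscle cells differentiate in culture.

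The labels and the cell type were checked first. Htt was lower in all 3 knockdown arrays (4.49, 4.47 and 4.65 against 5.59, 5.60 and 5.72). The difference was -1.10 ± 0.09, so these are cells with reduced Htt and not a knockout. Htt had an unadjusted p of 2.73e-06 and an adjusted p of 0.0559 (limma), so even the silenced gene missed limma's adjusted threshold. The 5 myoblast markers were not among the weak signals, and desmin (Des) lay between 9.92 and 10.35. Macrophage markers were of interest because macrophages are rich in lysosomes. Of the 6, 3 had means below the median gene mean of 2.95, among them Lyz2 and the leukocyte gene Ptprc. Lyz2 had means of 2.78 with Htt siRNA and 2.27 with scramble, in the weak range, and Ptprc lay between 1.96 and 2.22. Cd14 (3.93 to 4.47) and Cd68 (3.72 to 4.53) lay above it in every array. The 6 markers averaged 2.95 to 3.01 in the knockdown arrays and 2.91 to 3.02 in the scramble arrays. Within that average, single markers had differences in both directions: Lyz2 differed by 0.51 ± 0.14 (unadjusted p = 0.00677, adjusted p = 0.345), Cd68 by -0.39 ± 0.14 (unadjusted p = 0.0264, adjusted p = 0.413) and Cd14 by -0.30 ± 0.12 (unadjusted p = 0.0421, adjusted p = 0.444). The groups did not overlap for Lyz2 and Cd68, and none of the 6 passed limma's adjusted threshold; their part in the members' differences was not tested. The 8 myotube markers averaged 4.75 to 5.96 in the knockdown arrays and 3.43 to 4.13 in the scramble arrays, with all 8 differences positive, and the 8 replication markers 5.64 to 7.14 and 7.02 to 7.68, with all 8 negative. Of 14 stress response markers, genes of the integrated stress and unfolded protein responses, levels relative to the 6-array mean were 0.72, -1.14 and 0.86 in the knockdown arrays, in the order of replicates 1 to 3 used throughout, and 0.99, -0.96 and -0.47 in the scramble arrays. This stress level crossed the groups.

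Lysosome and autophagy genes differed little between Htt siRNA and scramble. No member passed the threshold of 0.05 adjusted over all genes: limma called 0 of 38 members, where 0% of all genes were called, and the smallest adjusted p of a member was 0.387 (Gla). At an unadjusted p under 0.05 there were 2 members, Hexa higher and Gla lower, against 10.9% of all genes (5.72% higher and 5.14% lower). The groups did not overlap in 5 members, Ctsd, Psap and Lamp2 higher and Gla and Atg7 lower, against 16% of all genes (10.1% higher and 5.91% lower). The members' share is therefore near or below that of genes at large by both counts. Differences ran from -0.24 (Gla) to 0.37 (Hexa), and 14 of the 38 were within 0.1 of 0. For comparison, 107 of the 22180 genes differed by at least 1 on the log2 scale. The 95% confidence intervals of 36 members included 0. Over all members these intervals reached from -0.48 (Tfe3) to 0.73 (Hexa), that is from 71.7% of the scramble level to 1.65-fold of it, so larger differences lie outside the interval of each member.

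**Figure D1:**
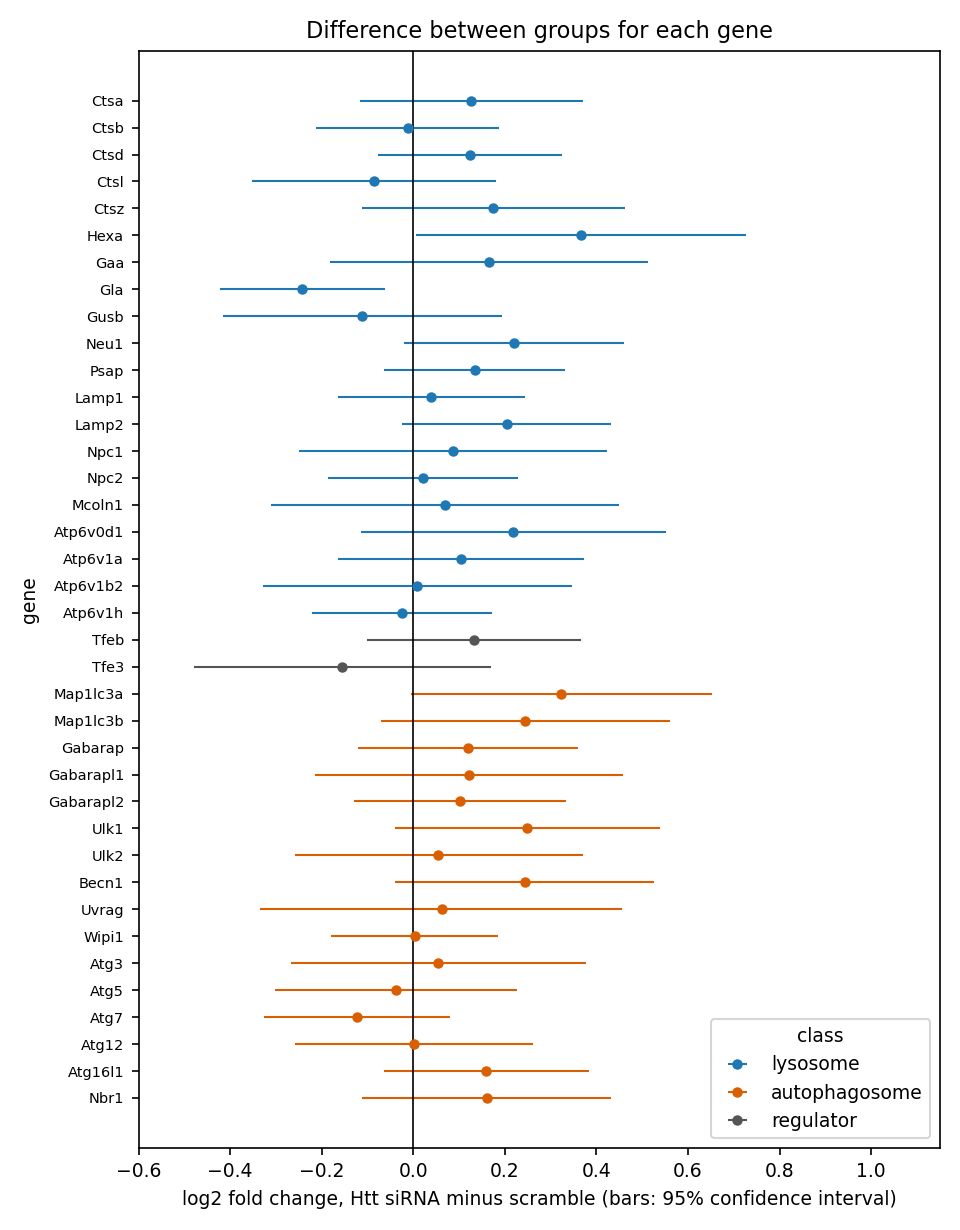
Log2 difference between Htt siRNA and scramble (x axis) for each of the 38 measured genes (y axis), as a point with its 95% confidence interval from limma, coloured by class. Intervals of Hexa and Gla exclude 0, and those of the other 36 genes include it.

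Most differences were small and positive. In 30 of 38 members the mean was higher with Htt siRNA, against 58.2% of all genes, and in 8 it was lower, against 41.8%. Of the 11090 genes above the median gene mean, 47.5% were higher. The members' median difference was 0.10, against 0.03 over all genes and -0.01 over those 11090. After arrays were centred on their medians the members' split was 22 positive and 16 negative, with a median of 0.04. Positive shares were then 40.6% of all genes and 34.2% of the 11090. With quantile normalization repeated the members' split was 31 positive and 7 negative, with a median of 0.11. Positive shares were then 51.9% of all genes and 52.7% of the 11090. Single arrays weighed on the median, which was 0.037 when Htt siRNA replicate 1 was left out and 0.055 when scramble replicate 2 was. The SE of a single member ran from 0.078 to 0.17, which is not the error of a median over 38 genes. No error was estimated for that median.

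**Figure D2:**
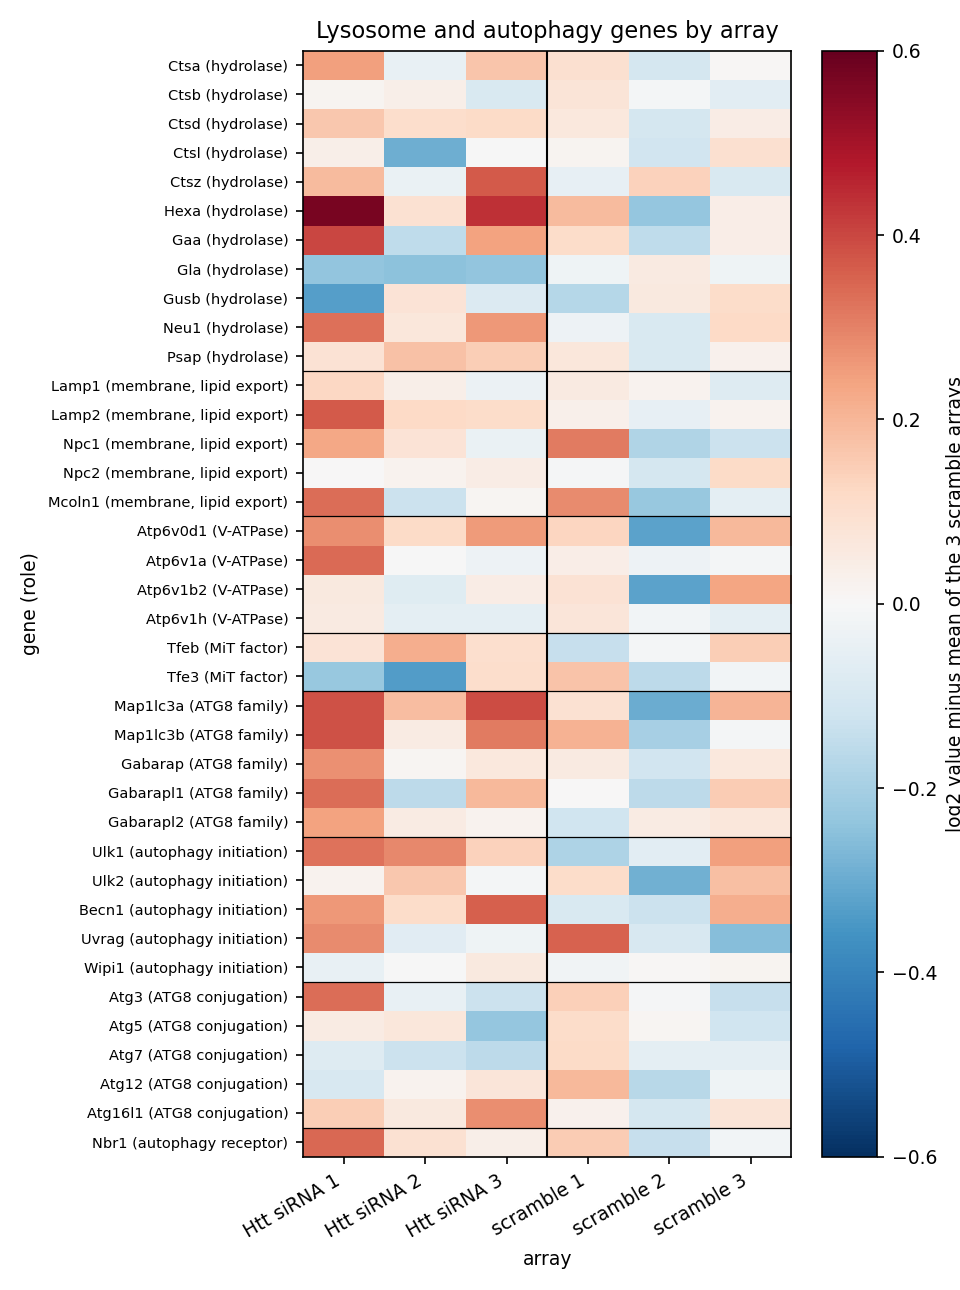
Log2 value of each measured gene (rows, grouped by role) in each array (columns), as the difference from the mean of the 3 scramble arrays of that gene; red is higher and blue lower. Htt siRNA replicate 1 is the reddest column, scramble replicate 2 the bluest, and Gla is lower in all 3 knockdown arrays.

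A DNA element that MiT factors bind is shown because a part of these genes, mostly lysosomal ones, shares it. TFEB and TFE3 bind E-boxes, CACGTG, typically in lysosomal genes with a T before them (TCACGTG), and the extended form TCACGTGA reads the same on both strands. RefSeq promoter windows (mouse build GRCm38.p6, 250 bases before to 50 after the annotated gene start) were found for 31 of the 39 listed genes, 37 windows in all. Both strands were searched, and each longer motif contains the shorter one. TCACGTG was present in 11 of the 37 windows (29.7%), against 3.77% of all 32851 windows in the table. TCACGTGA was present in 7 of 37 (18.9%), against 0.974%, and CACGTG in 13 of 37 (35.1%), against 7.15%. By gene, TCACGTG was found in 9 of 17 lysosomal genes with a window, in 2 of 12 autophagosome genes and in neither regulator. One match is printed for each measured gene that has the motif, with a second for Gla. Sequences run 5′ to 3′ on the gene's own strand, and capitals mark the match.
Ctsa, chr2:164833749-164833778, plus strand: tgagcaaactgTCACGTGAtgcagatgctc
Ctsd, chr7:142387908-142387937, minus strand: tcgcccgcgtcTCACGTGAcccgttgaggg
Gaa, chr11:119267811-119267840, plus strand: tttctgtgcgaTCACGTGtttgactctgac
Gla, first match, chrX:134601182-134601211, minus strand: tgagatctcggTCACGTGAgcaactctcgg
Gla, second match, chrX:134601215-134601244, minus strand: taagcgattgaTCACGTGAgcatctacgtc
Lamp1, chr8:13159088-13159117, plus strand: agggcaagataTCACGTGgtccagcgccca
Mcoln1, chr8:3500462-3500491, plus strand: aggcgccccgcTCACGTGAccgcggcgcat
Atp6v0d1, chr8:105566050-105566079, minus strand: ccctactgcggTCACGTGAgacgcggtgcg
Atp6v1a, chr16:44139373-44139402, minus strand: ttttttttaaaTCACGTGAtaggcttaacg
Atg3, chr16:45158746-45158775, plus strand: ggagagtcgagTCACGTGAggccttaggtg
Atg7, chr6:114670952-114670981, plus strand: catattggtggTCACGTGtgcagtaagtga
Lamp1 had the most matches, 4, and the match of Ctsd shown here begins 99 bases before the gene start. A match describes these letters only and shows no binding.

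Members with and without the element had similar differences. The 10 measured members with TCACGTG had a median difference of 0.087, with 8 positive, and the 20 members with a window but no TCACGTG had a median of 0.12, with 16 positive. Over all genes the medians were 0.030 for the 871 with TCACGTG and 0.029 for the 16119 without. Among the 10 carriers both directions occurred: Ctsd was higher without overlap between the groups, while Gla and Atg7 were lower without overlap. Of the 871 genes with TCACGTG, 79 were higher and 47 lower without overlap, and over all genes the share without overlap was 16%.

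Neither Tfeb nor Tfe3 differed beyond its spread. Tfeb, the master regulator of lysosome biogenesis, stood at 2.50, 2.64 and 2.52 with Htt siRNA and at 2.28, 2.41 and 2.57 with scramble. All 6 values are below the median gene mean of 2.95, the weak range in which RMA values compress differences, and Tfeb was the only member there. Its difference was 0.13 ± 0.10 (adjusted p = 0.669). Tfe3, its close relative, stood at 6.57, 6.46 and 6.90 with Htt siRNA and at 6.97, 6.64 and 6.78 with scramble. The groups overlapped, and the difference was -0.15 ± 0.14 (adjusted p = 0.725).

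Among the hydrolases, Hexa and Gla had the largest differences, in opposite directions. Hexa encodes the alpha subunit of beta-hexosaminidase, which degrades GM2 ganglioside and is lost in Tay-Sachs disease. It stood at 8.18, 7.70 and 8.05 with Htt siRNA and at 7.80, 7.38 and 7.65 with scramble. Htt siRNA replicate 2 lay below scramble replicate 1, so the groups overlapped, and in each group replicate 2 was the lowest. The means were 7.98 ± 0.25 and 7.61 ± 0.21 (SD, n = 3 each), a difference of 0.37 ± 0.16, or 1.29-fold (unadjusted p = 0.0474, adjusted p = 0.454, limma). Without Htt siRNA replicate 2 the adjusted p was 0.134, the smallest of any member in any setting run.

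Gla encodes alpha-galactosidase A, the enzyme missing in Fabry disease, and its values were among the tightest of the list. It stood at 5.84, 5.83 and 5.84 with Htt siRNA and at 6.05, 6.13 and 6.05 with scramble, so every knockdown array was below every scramble array. The difference was -0.24 ± 0.08, or 84.5% of the scramble level (unadjusted p = 0.0152, adjusted p = 0.387, limma). It lay between -0.26 and -0.21 when each array was left out in turn, so no single array carried it. Its unadjusted limma p was above 0.05 with repeated quantile normalization (0.0507), with a trended robust variance prior (0.0579) and without scramble replicate 2 (0.0529). In the other settings it stayed below 0.05.

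Ctsd and Psap were slightly higher in each knockdown array than in any scramble array. Ctsd, the aspartic protease cathepsin D, stood at 9.79, 9.73 and 9.74 against 9.69, 9.52 and 9.67 (0.12 ± 0.09, adjusted p = 0.640). Psap, the precursor of the saposins that present lipids to hydrolases, stood at 10.10, 10.19 and 10.16 against 10.08, 9.92 and 10.04 (0.13 ± 0.09, adjusted p = 0.606). For both genes the gap between the groups was small beside the range within the scramble group. Neu1, the lysosomal sialidase, stood at 4.93, 4.67 and 4.86 against 4.57, 4.51 and 4.72, with an overlap of 1 array pair and a difference of 0.22 ± 0.10 (adjusted p = 0.491).

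The other hydrolases showed smaller or noisier differences. Ctsz, a carboxypeptidase of the cathepsin family, differed by 0.17 ± 0.12, Gaa, the acid glucosidase that degrades glycogen and is deficient in Pompe disease, by 0.16 ± 0.15, and Ctsa, the protective protein of Neu1 and beta-galactosidase, by 0.13 ± 0.10. Gaa in Htt siRNA replicate 2 equalled the lowest scramble array at 5.72, while replicates 1 and 3 stood at 6.27 and 6.11. The cysteine proteases Ctsb (-0.012 ± 0.086) and Ctsl (-0.086 ± 0.115) and the glucuronidase Gusb (-0.11 ± 0.13) had differences below 0. The sign of Ctsb turned with repeated quantile normalization (0.016). In all, 7 of the 11 genes grouped as hydrolases, with Psap counted among them, were positive and 4 negative, with a median of 0.13.

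All 5 genes of the lysosomal membrane and of lipid export had positive differences, or 3 of 5 once arrays were centred on their medians, when Lamp1 (-0.024) and Npc2 (-0.041) turned. Lamp2, a heavily glycosylated membrane protein that autophagosome fusion and chaperone-mediated autophagy need and that is lost in Danon disease, had the largest. It stood at 9.48, 9.23 and 9.22 against 9.14, 9.06 and 9.13 (0.20 ± 0.10, adjusted p = 0.498). The groups did not overlap, and Htt siRNA replicate 1 lay apart from the other knockdown arrays. Lamp1, its sister protein, differed by 0.039 ± 0.088. Npc1 and Npc2 hand cholesterol out of the lysosome. Npc1 stood at 6.49, 6.34 and 6.22 against 6.57, 6.08 and 6.13 (0.087 ± 0.145, adjusted p = 0.860), with scramble replicate 1 the highest of all 6 arrays, and Npc2 differed by 0.022 ± 0.089. Mcoln1, the calcium channel of the lysosomal membrane, differed by 0.070 ± 0.164.

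The V-ATPase subunits did not differ beyond their spread. Atp6v0d1, of the membrane sector, stood at 7.84, 7.68 and 7.82 against 7.69, 7.24 and 7.76 (0.22 ± 0.14, adjusted p = 0.617). Scramble replicate 2 was the low array, the other 5 lay within the range from 7.68 to 7.84, and without that array the difference was 0.057. Atp6v1a, the catalytic subunit, stood at 7.67, 7.33 and 7.30 against 7.37, 7.30 and 7.32 (0.10 ± 0.12, adjusted p = 0.778). Here 1 array made the difference, since it was -0.015 without Htt siRNA replicate 1. Atp6v1b2 (0.009 ± 0.145) and the regulatory subunit Atp6v1h (-0.025 ± 0.085) were near 0, and both changed sign under at least 1 other scaling.

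The ATG8 family was the role with the most even pattern: all 5 genes had positive differences, also with arrays centred on their medians and with repeated quantile normalization. Its proteins are fixed to the growing membrane and bind cargo receptors. Map1lc3a, which encodes LC3A, stood at 4.09, 3.89 and 4.10 against 3.80, 3.41 and 3.91. Htt siRNA replicate 2 lay just below scramble replicate 3, and the difference was 0.32 ± 0.14, or 1.25-fold (unadjusted p = 0.0531, adjusted p = 0.467, limma). Leaving out scramble replicate 2, the lowest array, reduced it to 0.17. Map1lc3b, which encodes LC3B, the usual autophagosome marker, stood at 8.01, 7.68 and 7.94 against 7.84, 7.43 and 7.62, with overlapping groups (0.24 ± 0.14, adjusted p = 0.556). Its lowest array in each group was replicate 2, and the difference was 0.14 with that scramble array left out. Gabarap differed by 0.12 ± 0.10, Gabarapl1 by 0.12 ± 0.14 and Gabarapl2 by 0.10 ± 0.10. A dimmer second probe set of Gabarap gave 0.27, so the size of that difference depended on the probe set.

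Of the initiation genes, Ulk1 and Becn1 had the largest differences. Ulk1, the kinase that starts autophagosome formation, stood at 5.55, 5.51 and 5.36 against 5.04, 5.16 and 5.47 (0.25 ± 0.13, adjusted p = 0.512). Becn1, beclin 1 of the lipid kinase complex that acts next, stood at 6.81, 6.66 and 6.91 against 6.46, 6.42 and 6.77 (0.24 ± 0.12, adjusted p = 0.512). In both genes scramble replicate 3 was the array that overlapped with the knockdown arrays, and the other scramble arrays lay below all of them. Ulk2 (0.055 ± 0.136), the beclin partner Uvrag (0.062 ± 0.170) and the lipid-binding protein gene Wipi1 (0.004 ± 0.079) were near 0, with values of -0.007, -0.001 and -0.059 on centred arrays.

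The conjugation genes encode the machinery that attaches ATG8 proteins to lipid, and they showed the smallest median of the roles other than the MiT factors, 0.002. Atg16l1, which places the machinery on the membrane, stood at 5.72, 5.63 and 5.85 against 5.60, 5.47 and 5.65 (0.16 ± 0.10, adjusted p = 0.589). Atg7, the activating enzyme, stood at 4.64, 4.59 and 4.56 against 4.83, 4.66 and 4.66 (-0.12 ± 0.09, adjusted p = 0.646). The Atg7 groups did not overlap, but the gap was narrower than the range of the scramble arrays. Atg3 (0.055 ± 0.139), Atg5 (-0.038 ± 0.114) and Atg12 (0.002 ± 0.112) were near 0. Nbr1, a receptor that brings ubiquitinated cargo to the autophagosome, stood at 7.76, 7.51 and 7.45 against 7.57, 7.28 and 7.40 (0.16 ± 0.12, adjusted p = 0.659), with overlapping groups.

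Lysosome and autophagosome genes had similar differences. The mean difference was 0.079 over the 20 lysosomal genes and 0.11 over the 16 autophagosome genes, which leaves -0.029 for lysosome minus autophagosome. Both means depended on scaling and on single arrays. They were 0.017 and 0.046 on centred arrays, 0.038 and 0.064 when Htt siRNA replicate 1 was left out, and 0.033 and 0.054 when scramble replicate 2 was. Relative to the 6-array mean, the lysosome level was 0.12, -0.045 and 0.042 with Htt siRNA and 0.027, -0.13 and -0.012 with scramble. The autophagosome level was 0.14, -0.011 and 0.031 with Htt siRNA and 0.018, -0.16 and -0.016. Subtracting 1 class from the other in each array left -0.021, -0.034 and 0.010 with Htt siRNA and 0.009, 0.031 and 0.004 with scramble. These values overlap between the groups, and their pooled SD within groups was 0.019. No test is given, since the members were chosen by name with earlier results known.

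**Figure D3:**
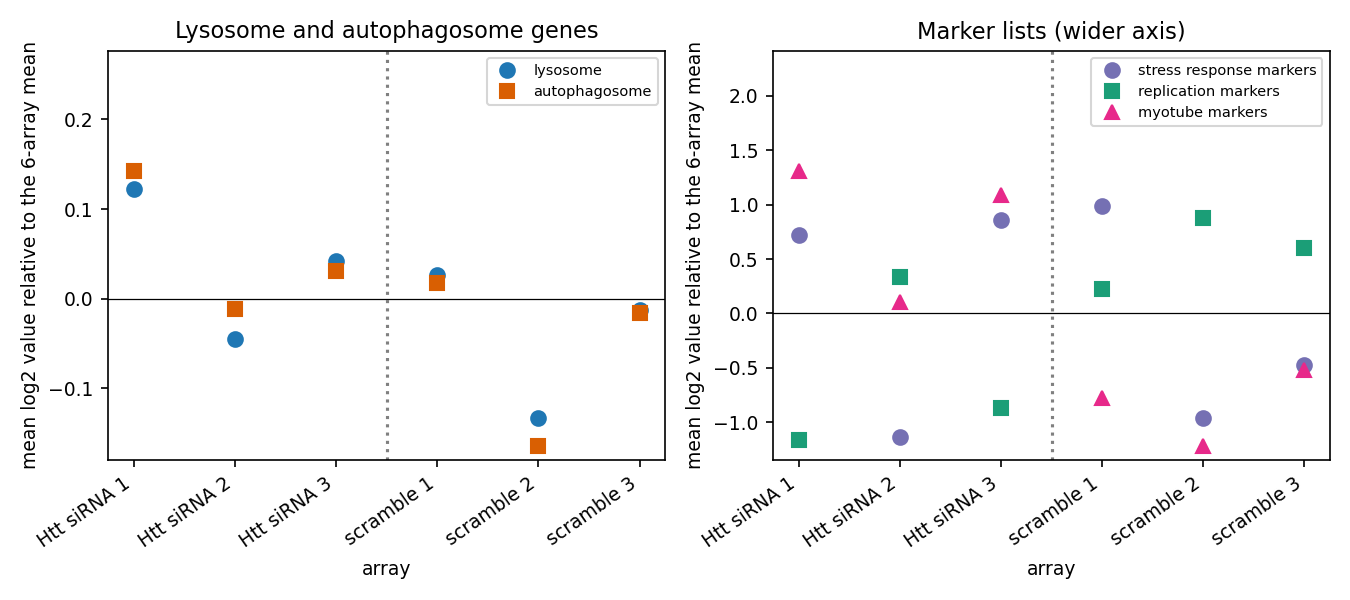
Mean log2 value relative to the 6-array mean (y axis) in each array (x axis), for the lysosome and autophagosome genes on the left and for stress, replication and myotube markers on the right, where the axis is wider. Lysosome and autophagosome points lie close together in each array, and the difference between arrays of 1 group is as large as that between the groups.

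Arrays of the same group differed as much as the groups did. Of the 38 members, 24 were highest of the knockdown arrays in Htt siRNA replicate 1, against 33.2% of the 11090 genes above the median gene mean, and 20 were lowest in replicate 2, against 36.3%. Among the scramble arrays, 25 members were lowest in replicate 2, against 47.2%, and 2 were highest there, against 22.2%. The same 2 arrays, Htt siRNA replicate 2 and scramble replicate 2, had the lowest levels of the stress response markers, at -1.14 and -0.96. With the stress level as a covariate, 3 members had an unadjusted p under 0.05 (Hexa, Gla and Map1lc3a), against 13.3% of all genes, and 0 passed the adjusted threshold. Hexa then differed by 0.31 (adjusted p = 0.232, limma) and Map1lc3a by 0.29 (adjusted p = 0.373). The part of stress, myotube or replication genes in the members' differences was not tested otherwise. Leaving out Htt siRNA replicate 2 gave 8 members with an unadjusted p under 0.05, Ctsz, Hexa, Gaa, Gla, Neu1, Map1lc3a, Map1lc3b and Becn1, against 15.6% of all genes. The other omissions gave fewer. The count was 1 without the first knockdown array, against 7.69% of all genes, and 1 without the third, against 7.41%. It was 3 without the first scramble array, against 10.3%, 0 without the second, against 6.93%, and 5 without the third, against 8.35%. Without Htt siRNA replicate 2, limma called 2.43% of all genes at the adjusted threshold and 0 of the 38 members. At that share few or none of 38 genes would be called, so the members do not stand apart by this count.

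Further genes of the same organelles included some larger differences, and none passed limma's adjusted threshold. Of 16 other genes of the lysosomal membrane and of enzyme sorting, 12 were positive (11 on centred arrays), with a median of 0.15. The largest by p were Ostm1, a partner of the chloride transporter Clcn7 (0.37 ± 0.09, unadjusted p = 0.00328, adjusted p = 0.300), and Scarb2, the receptor that carries glucocerebrosidase to lysosomes (0.48 ± 0.18, adjusted p = 0.420). Sumf1, which activates lysosomal sulfatases, differed the other way (-0.40 ± 0.10, unadjusted p = 0.00472, adjusted p = 0.314). In this list 3 of the 16 genes had an unadjusted limma p under 0.05, 2 higher and 1 lower, against 10.9% of all genes. Of 25 other hydrolases, 14 were positive (8 on centred arrays) with a median of 0.013. An unadjusted limma p under 0.05 was found for 1 of the 25, against 10.9% of all genes. It was the collagen-degrading cathepsin gene Ctsk (-0.24 ± 0.10), whose means of 2.02 and 2.26 lie in the weak range below the median gene mean. Naglu, an enzyme of heparan sulfate breakdown, differed by 0.37 ± 0.17.

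Of 13 other V-ATPase genes, 11 were positive (9 on centred arrays), with a median of 0.13. Atp6v0a2, a subunit that directs the pump to Golgi and endosomes, differed by 0.24 ± 0.09 (adjusted p = 0.407, limma), and Atp6v0e2 by -0.40 ± 0.14 (adjusted p = 0.407). These were the 2 of 13 with an unadjusted p under 0.05, against 10.9% of all genes. Of the 25 other core autophagy genes 9 were positive and 16 negative, with a median of -0.034. None of them, 0 of 25, had an unadjusted limma p under 0.05, against 10.9% of all genes. The split was 8 and 17 on centred arrays but 13 and 12 with repeated quantile normalization, where the median was 0.001, and their difference from the autophagosome members was not tested. Atg14 differed by 0.24 ± 0.12 and Atg13, a partner of Ulk1, by 0.47 ± 0.29. Among 6 other receptors, Calcoco1, a receptor for endoplasmic reticulum and Golgi, differed by 0.60 ± 0.19 (unadjusted p = 0.0151, adjusted p = 0.387), while Sqstm1, which encodes p62, differed by 0.058 ± 0.216.

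**Figure D4:**
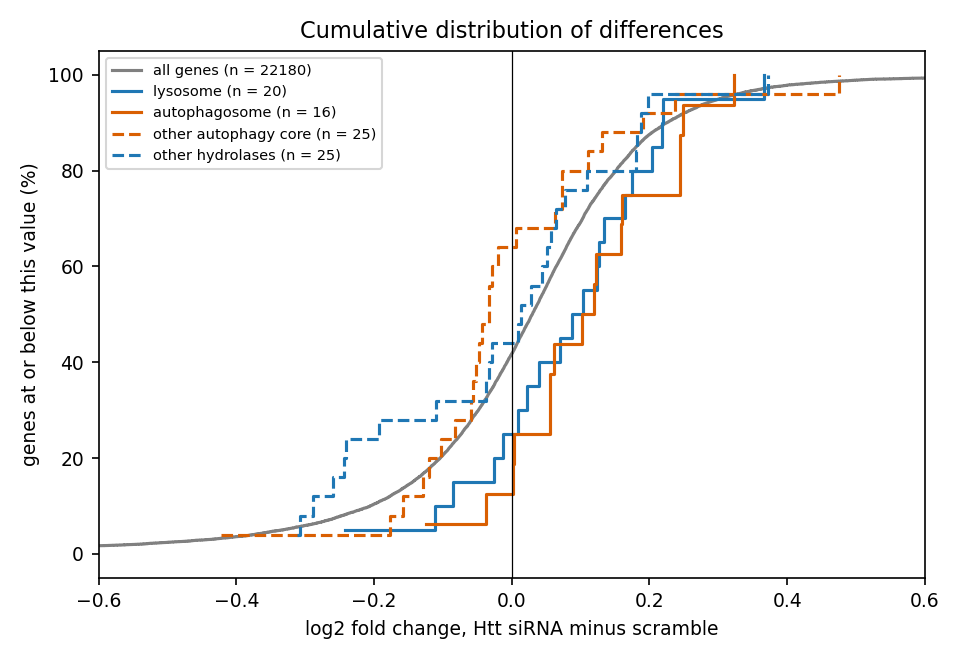
Share of genes (y axis, percent) at or below each log2 difference between Htt siRNA and scramble (x axis, cut at 0.6 on both sides), for all 22180 genes, the lysosome and autophagosome members and 2 lists of further genes. The lysosome and autophagosome lines lie to the right of the line of all genes over most of their course, and at 0 the line of the other core autophagy genes lies above it.

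The list of MiT and mTORC1 regulators held the largest difference of these further lists. Rragd, a lysosomal GTPase that controls mTORC1 and TFEB and is itself a MiT target, stood at 6.39, 6.18 and 5.82 with Htt siRNA and at 5.42, 5.24 and 5.49 with scramble. Every knockdown array was above every scramble array, with a difference of 0.74 ± 0.15 (unadjusted p = 0.00125, adjusted p = 0.246, limma). Flcn, folliculin, which acts on the same GTPases, differed by 0.35 ± 0.14 (unadjusted p = 0.043, adjusted p = 0.445). Of the 19 genes, 15 were positive (11 on centred arrays), with a median of 0.095, and Mtor itself differed by 0.033 ± 0.090.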

How the data were processed

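The authors deposited log2 expression values for 41345 probe sets on 6 arrays, and the submitters' processing notes name RMA and affy without versions. RMA includes quantile normalization, which hides any change in the total RNA of a cell, and it compresses weak signals. Probe sets with 1 symbol in the platform annotation (23521) gave 22180 genes; 1814 had several symbols and 16010 were unnamed here. The brightest probe set over the 6 arrays stood for a gene. Of the 1-symbol probe sets, 23328 matched a RefSeq table (GRCm38.p6) by Entrez identifier. Depth does not apply to arrays; their number limits the precision.

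Differences were fitted over all genes with limma 3.58.1 (lmFit, eBayes) in R 4.3.3, with group as the only term, two-sided, adjusted by Benjamini-Hochberg over all genes, with a threshold of 0.05. The fit was tested on simulated data. Tables and plots used Python 3.11.15, pandas 2.3.3 and matplotlib 3.10.9. Alternatives covered scaling, dim genes, probe sets, array weights, the variance prior, a replicate block, a stress covariate and leaving out each array. Members, gene lists and the naming rule were chosen with earlier results of these data known. By that rule every member is named, with values in each array where groups did not overlap and for at least the 2 smallest p of each role. Genes of further lists were named from the 3 smallest p of each direction, and not all of these are named. Neu1 by array, Des, Ptprc and Mtor were added after their values were seen. The promoter table was searched for E-box motifs after the files were seen.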

Additional observations from a re-analysis of the deposited data

How the results depend on the processing

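No member passed the adjusted threshold under any of the 14 alternatives; the smallest adjusted p was 0.134. Of the 38 differences, 22 kept their sign throughout, 19 of them positive, and 16 changed it, none larger than 0.111 in size. The count of all genes past the threshold was 0. It was 3 with centred arrays, 3 with repeated quantile normalization, 3 among genes above the median mean, 1 with array weights, 4 with a trended robust prior, 65 with the stress covariate and 98 with the replicate block, and 0 to 540 when an array was left out, the highest without Htt siRNA replicate 2. The labels do not say whether the numbers 1 to 3 pair the arrays. Same-numbered deviations correlated at 0.35, 0.364 and 0.00636. For Htt siRNA replicates 1 and 2 this was the best match, while Htt siRNA replicate 3 correlated best with scramble replicate 1 (0.223). Whether same-numbered arrays shared a batch was not tested. With the replicate block, 5 members had an unadjusted p under 0.05, against 13.9% of all genes, and 0 passed. Lysosome minus autophagosome ran from -0.046 to -0.02 over all settings, and from -0.042 to -0.02 when an array was left out.

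Signs turned on centred arrays for Lamp1 (-0.024), Npc2 (-0.041), Atp6v1b2 (-0.053), Ulk2 (-0.007), Uvrag (-0.001), Wipi1 (-0.059), Atg3 (-0.008) and Atg12 (-0.061). Centring takes 1 value off all genes of an array, so all differences moved by the same amount. That of Ctsa went from 0.127 to 0.064 and that of Wipi1 from 0.004 to -0.059. Signs also turned with repeated quantile normalization for Ctsb (0.016), Npc2 (-0.016) and Atp6v1h (0.021), and with array weights for Atp6v1b2 (-0.007) and Wipi1 (-0.004). With the stress covariate they turned for Atp6v1b2 (-0.019) and Atg12 (-0.019), and with the mean of all probe sets for Atp6v1b2 (-0.022). The cause of these other turns was not tested. When each array was left out, the ranges that reached or crossed 0 were -0.045 to 0.029 (Ctsb), -0.146 to 0.016 (Ctsl), -0.208 to 0 (Gusb), -0.005 to 0.077 (Lamp1), -0.003 to 0.24 (Npc1), -0.032 to 0.08 (Npc2), -0.062 to 0.209 (Mcoln1), -0.015 to 0.169 (Atp6v1a), -0.152 to 0.128 (Atp6v1b2), -0.063 to 0.012 (Atp6v1h), -0.091 to 0.146 (Ulk2), -0.065 to 0.238 (Uvrag), -0.022 to 0.025 (Wipi1), -0.084 to 0.143 (Atg3), -0.097 to 0.059 (Atg5) and -0.082 to 0.098 (Atg12).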
